A study of Mus musculus with 11 samples.

Results

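This account follows 10 genes that write, copy, oxidise or silence through chromatin marks: the DNA methyltransferases Dnmt1, Dnmt3a and Dnmt3b, the Dnmt1 cofactor Uhrf1, the dioxygenases Tet1, Tet2 and Tet3, and the Polycomb repressive complex (PRC2) genes Ezh2, Eed and Suz12. They were picked by gene symbol, with earlier results of these data known. All 10 were found among the 24319 symbols of the tables, and all 10 passed the low-value filter that left 11110 genes in the comparisons between groups. RNA was sequenced in 11 libraries from C57BL/6J mice. The leukemic group (B-ALL, B cell acute lymphoblastic leukemia) held lymph node cells of 3 Ebf1+/- Pax5+/- mice, numbered 686, 713 and 760, with 2 libraries each. The pre-leukemic group (dHet proB) held 3 libraries of Ebf1+/- Pax5+/- Rag2-/- fetal liver cells, taken as c-Kit+ and cultured briefly over an OP9 feeder layer (a stromal line) in IL-7, Flt3L and SCF. The normal group (wt proB) held 2 libraries of Fraction BC cells sorted from bone marrow of Ebf1+/+ Pax5+/+ Rag2+/+ mice. No animal ages are used here. Leukemia, tissue, culture, the way the cells were selected and the Rag2 genotype differ together between the groups. The Ebf1 and Pax5 genotypes also differ between wt proB and both other groups. The effects of these factors cannot be told apart. The libraries of a mouse were averaged, so the B-ALL group has n = 3 mice. The labels do not say if dHet proB or wt proB libraries stem from different animals or cultures, so the spread that the p-values rest on is between libraries and may be technical. The dHet proB sample titled replicate 3 carries the source name of replicate 2, and it is called library 3 here.

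Methylation of cytosine in CpG pairs is laid down on unmarked DNA by DNMT3A and DNMT3B and is copied to the new strand after each replication by DNMT1, which UHRF1 brings to hemimethylated sites. TET enzymes oxidise 5-methylcytosine, a step towards its removal. In PRC2, EZH2 is the methyltransferase that marks histone H3 at lysine 27, EED reads the mark, and SUZ12 holds the complex together. EZH1 can take the place of EZH2 and is the form known from cells that divide little. In mice, EZH2 is needed for rearrangement of distal heavy chain variable segments in early B cells, and DNMT3A and TET2 are often mutated in human blood cancers.

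Promoter windows of 250 bases before to 50 bases after each annotated start were taken from RefSeq (build GRCm38.p6, while the deposited values rest on mm9). All 10 members had a window. They are shown because the members are set beside replication genes below, and E2F factors are textbook regulators of replication genes. The letters searched for E2F were TTTGGCGC, TTTCCCGC, TTTCGCGC and TTTGCCGC, on both strands. They were found in a window of 4 of the 10 members, Dnmt1, Uhrf1, Ezh2 and Suz12, and in a window of 704 of all 27025 genes (2.60%). In the 4 windows printed here, 5′ to 3′ along the gene, capitals mark those letters or their reverse complement.
Dnmt1, chr9:20952574-20952873, minus strand: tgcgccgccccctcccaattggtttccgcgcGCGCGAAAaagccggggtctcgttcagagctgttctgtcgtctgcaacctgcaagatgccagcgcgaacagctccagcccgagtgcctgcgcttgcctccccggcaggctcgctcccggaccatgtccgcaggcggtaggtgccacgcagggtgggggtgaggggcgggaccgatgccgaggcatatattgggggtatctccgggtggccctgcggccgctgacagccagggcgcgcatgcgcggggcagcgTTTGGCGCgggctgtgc
Uhrf1, chr17:56304063-56304362, plus strand: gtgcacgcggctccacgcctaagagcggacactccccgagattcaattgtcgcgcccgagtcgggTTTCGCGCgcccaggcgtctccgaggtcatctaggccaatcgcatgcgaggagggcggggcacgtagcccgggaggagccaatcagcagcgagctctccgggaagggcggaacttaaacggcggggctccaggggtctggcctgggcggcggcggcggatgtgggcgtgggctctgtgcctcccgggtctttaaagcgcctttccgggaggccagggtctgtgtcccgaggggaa
Ezh2, chr6:47594981-47595280, minus strand: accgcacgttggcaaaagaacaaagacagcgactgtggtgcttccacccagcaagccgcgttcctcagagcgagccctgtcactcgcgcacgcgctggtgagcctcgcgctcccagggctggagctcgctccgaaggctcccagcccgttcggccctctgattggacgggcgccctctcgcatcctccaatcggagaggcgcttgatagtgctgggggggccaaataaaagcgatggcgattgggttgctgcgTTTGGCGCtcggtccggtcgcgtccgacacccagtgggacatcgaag
Suz12, chr11:79992856-79993155, plus strand: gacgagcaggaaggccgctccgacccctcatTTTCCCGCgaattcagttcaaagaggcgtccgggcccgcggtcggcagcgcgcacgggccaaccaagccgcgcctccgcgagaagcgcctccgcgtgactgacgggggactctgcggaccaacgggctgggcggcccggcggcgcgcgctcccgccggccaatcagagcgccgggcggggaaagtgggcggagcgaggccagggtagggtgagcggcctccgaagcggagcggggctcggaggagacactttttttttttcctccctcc
The Dnmt1 window held the letters at 2 places and is 1 of 3 annotated starts. The Uhrf1 window is 1 of 2 annotated starts. In Ezh2 the match began at base 4, with the start itself counted as base 1, while in Suz12 it began 219 bases before the start. The palindromic core bound by EBF1 was searched as TCCC, 2 bases of any kind and GGGA. A window with it was found for Eed alone among the members and for 287 of all 27025 genes (1.06%). These matches describe the letters only. The printed windows held 31 to 41 CpG pairs, against a median of 7 over all 32851 windows. They were picked for E2F letters, each of which holds a CpG pair. The other annotated starts held 12 and 2 for Dnmt1 and 12 for Uhrf1. Windows of members without an E2F match held 17 (Eed and Tet1) to 57 (Tet2).

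All 15 B-lineage markers on the list were at 1 FPKM (fragments scaled by transcript length and library size) or more in every library. Ebf1 had 151 to 212 FPKM in the 6 B-ALL libraries, 283 to 369 FPKM in the 3 dHet proB libraries and 297 and 542 FPKM in the 2 wt proB libraries. For Pax5 the values were 35.3 to 52.8 FPKM in B-ALL, 70.9 to 99.0 FPKM in dHet proB and 101 and 57.2 FPKM in wt proB. Rag2 was read at 8.57 to 12.6 FPKM in the Rag2-/- dHet proB libraries, and gene-level values do not show whether those fragments lie in the deleted part. Markers of other cell types differed between the groups. The 11 neutrophil and monocyte markers summed to 28.6 to 262 FPKM in B-ALL, 13.8 to 51.7 FPKM in dHet proB and 540 and 562 FPKM in wt proB. Markers of plasmacytoid dendritic cells (8 genes) summed to 85.8 to 119 FPKM in B-ALL, 79.6 to 108 FPKM in dHet proB and 486 to 708 FPKM in wt proB. In B-ALL and dHet proB most of that sum was Bst2 and Tcf4. Siglech was at 0.0150 to 1.65 FPKM in B-ALL, at 0 in dHet proB and at 132 and 77.3 FPKM in wt proB. Red cell markers (7 genes) summed to 7.83 to 501 FPKM in B-ALL, 0.882 to 1.28 FPKM in dHet proB and 9.94 to 31.2 FPKM in wt proB. Both myeloid and dendritic sums were thus highest in wt proB, while the red cell sum was highest in mice 713 and 760 and low in mouse 686. T cell markers (10 genes) summed to 25.1 to 46.6 FPKM in B-ALL, 4.11 to 8.95 FPKM in dHet proB and 15.9 to 21.7 FPKM in wt proB. In mouse 760 most of that sum was Thy1, at 37.8 and 36.7 FPKM. Cd3e was at 1.18 and 1.46 FPKM in mouse 760 and at 4.03 to 5.41 FPKM in mice 686 and 713. Stromal and endothelial markers (8 genes) summed to 20.1 to 47.2 FPKM in B-ALL, 43.3 to 82.0 FPKM in dHet proB and 60.2 to 64.1 FPKM in wt proB. In dHet proB, 3 myeloid, 3 dendritic, 4 red cell and 4 T cell markers were at 0 in every library. The part of these cells in the results below was not tested. Absolute depth is unknown. Values under 0.15 FPKM fall in steps, and the commonest step put the other libraries at 0.637 to 0.889 of the depth of library 1 of mouse 686; for the dHet proB libraries this rests on 2.38 to 3.34% of such genes within 0.01 on the log2 scale.

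Ezh2 was the one member called in both B-ALL comparisons. Its transcript fell to 68.4 ± 8.2 FPKM in B-ALL (SD, n = 3 mice), against 223 ± 39 FPKM in dHet proB (SD, n = 3) and 135 ± 1.0 FPKM in wt proB (SD, n = 2). Tet1 was higher in B-ALL than in dHet proB and lower in dHet proB than in wt proB, at levels near or under 2 FPKM. Every dHet proB library was under 1 FPKM for Tet1, so dHet proB could be called only as the lower group. The other 8 members did not pass the test in any comparison between groups. Tests were made with limma on log2(FPKM + 1), and fold changes are on that scale. Between B-ALL and dHet proB, 2 of 10 members passed an adjusted p of 0.05, against 25.5% of all genes tested: Tet1 was higher (14.5% of all genes were) and Ezh2 lower (11% were). Between B-ALL and wt proB, 1 of 10 passed, against 18.2% of all genes: Ezh2 was lower (10% of all genes were, and 8.15% were higher). Between dHet proB and wt proB, 1 of 10 passed, against 8.68% of all genes: Tet1 was lower (6.5% of all genes were, and 2.18% were higher). At an unadjusted p under 0.05 the members numbered 4, 2 and 2 of 10 in these comparisons, against 40.2%, 35% and 22.5% of all genes. The share of members called was near the share of all genes in each comparison.

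**Figure D1:**
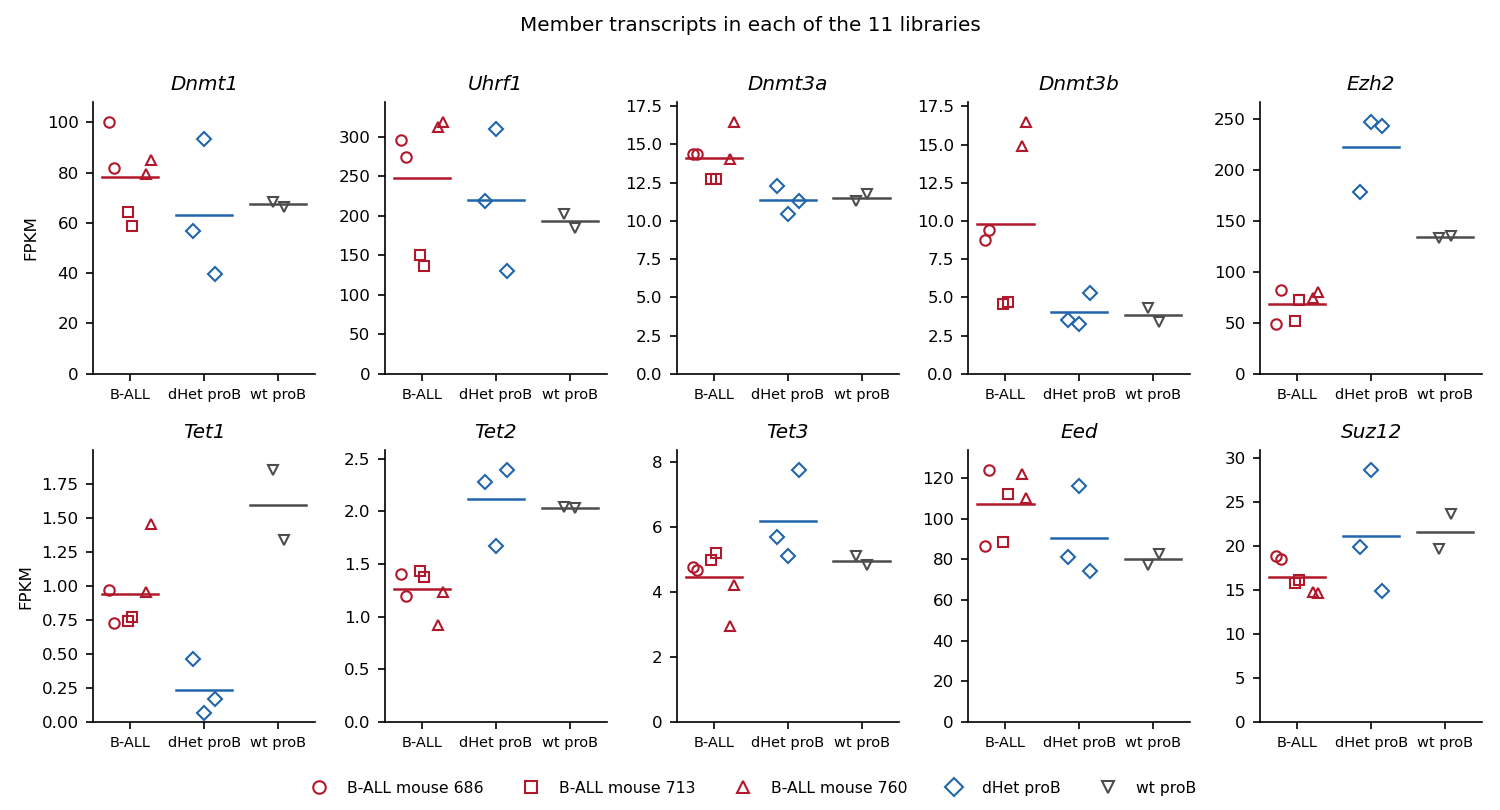
FPKM of each of the 10 genes in every library, with B-ALL at the left, dHet proB in the middle and wt proB at the right of each panel; symbols mark the mouse or group, and lines mark the mean over mice or libraries. All 6 B-ALL libraries lie below all 5 proB libraries for Ezh2, and for Dnmt3b the libraries of mice 686 and 760 lie above the proB libraries while those of mouse 713 lie among them.

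**Figure D2:**
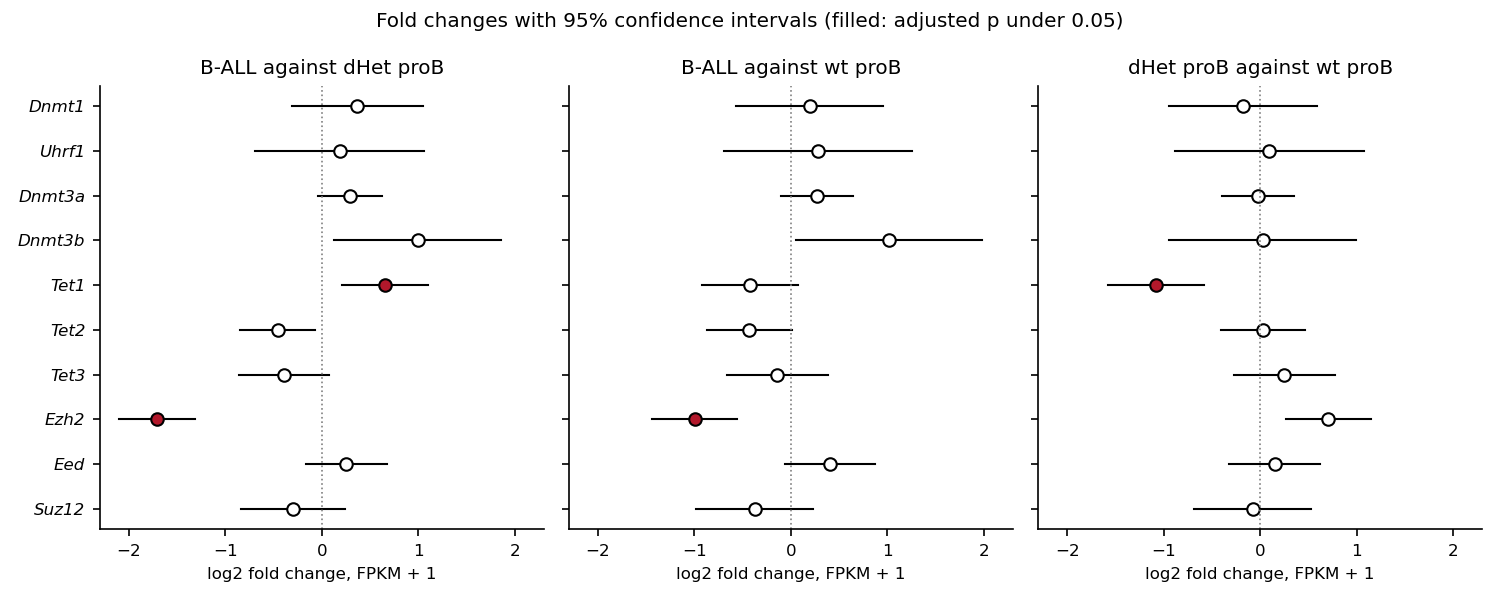
Log2 fold changes of FPKM + 1 for the 10 genes in the 3 comparisons, as points with 95% confidence intervals from limma; filled points passed an adjusted p of 0.05. Ezh2 is at -1.70 and -1.0 in the B-ALL comparisons, and Tet1 is at 0.65 for B-ALL against dHet proB and at -1.08 for dHet proB against wt proB.

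Groups whose libraries did not overlap were counted as well. Between B-ALL and dHet proB this held for 4 of 10 members (Dnmt3a and Tet1 higher, Tet2 and Ezh2 lower) and for 34.9% of all genes tested (19.5% higher, 15.5% lower). Between B-ALL and wt proB it held for 6 of 10 members (Dnmt3a, Dnmt3b and Eed higher, Tet2, Ezh2 and Suz12 lower) and for 48.2% of all genes (23.5% higher, 24.7% lower). Between dHet proB and wt proB it held for 3 of 10 members (Tet3 and Ezh2 higher, Tet1 lower) and for 43% of all genes (18.9% higher, 24.1% lower). The comparisons share samples, so these counts are not independent of each other. The median log2 fold change of the members was 0.22 in B-ALL against dHet proB (0.04 over all genes tested), 0.03 in B-ALL against wt proB (-0.02 over all genes) and 0.03 in dHet proB against wt proB (-0.04 over all genes).

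Dnmt1 and Uhrf1, the maintenance pair, were among the abundant transcripts of every library. Uhrf1 ranked above 93.2 to 97.8% of detected genes and Dnmt1 above 79.1 to 91.1%. Dnmt1 had 100.01 and 82.0 FPKM in mouse 686, 64.5 and 58.7 FPKM in mouse 713, and 79.5 and 85.1 FPKM in mouse 760, against 56.6, 93.5 and 39.6 FPKM in dHet proB and 68.4 and 66.4 FPKM in wt proB. The dHet proB libraries alone spanned both ends of the range apart from mouse 686 library 1, so the groups overlapped. The log2 fold changes were 0.37 ± 0.30 (SE) for B-ALL against dHet proB (limma adjusted p = 0.390) and 0.19 ± 0.33 (SE) for B-ALL against wt proB (adjusted p = 0.711). Uhrf1 had 297 and 275 FPKM in mouse 686, 151 and 137 FPKM in mouse 713, and 312 and 318 FPKM in mouse 760, against 219, 310.4 and 129.7 FPKM in dHet proB and 202 and 185 FPKM in wt proB. Mouse 713 was low and mice 686 and 760 were high, with the wt proB libraries between them. Of its 3537 words of 50 bases, 638 also occur in Gm5648, a gene with no row in the tables, so its values are uncertain to that extent. Its 95% confidence interval ran from -0.69 to 1.06 against dHet proB and from -0.70 to 1.26 against wt proB, so changes of about that size in either direction were not detectable here.

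Dnmt1 and Uhrf1 were set beside the genes of DNA replication. The geometric mean of Mcm2 to Mcm7, the subunits of the replicative helicase, was 156 to 256 FPKM in the 6 B-ALL libraries, 149, 249.7 and 80.4 FPKM in dHet proB libraries 1 to 3, and 164 and 156 FPKM in wt proB. Library 3 of dHet proB was the lowest in the Mcm genes, in Dnmt1 and in Uhrf1. This ratio to the Mcm genes was chosen after the values were seen and is given without a test. Dnmt1 stood at 0.348 to 0.399 of the Mcm mean in B-ALL, 0.374 to 0.493 in dHet proB and 0.417 to 0.425 in wt proB. Uhrf1 stood at 0.876 to 1.49 of it in B-ALL, 1.24 to 1.61 in dHet proB and 1.18 to 1.23 in wt proB. Ezh2 stood at 0.190 to 0.465 of the Mcm mean in B-ALL, 0.990 to 3.03 in dHet proB and 0.815 to 0.867 in wt proB. Suz12 stood at 0.0655 to 0.104 in B-ALL, 0.114 to 0.185 in dHet proB and 0.120 to 0.151 in wt proB. For both Ezh2 and Suz12 all B-ALL libraries lay below all proB libraries on this scale. Eed overlapped, at 0.337 to 0.720 in B-ALL, 0.465 to 0.924 in dHet proB and 0.469 to 0.531 in wt proB. The Mcm mean itself had a median of 220 FPKM in B-ALL, 149 FPKM in dHet proB and 160 FPKM in wt proB. A higher divisor lowers the ratio, and in plain FPKM Suz12 in B-ALL overlapped dHet proB. The share of all genes that separate on this ratio was not computed. In the list of 25 cell cycle genes, none passed with limma in B-ALL against dHet proB (25.5% of all genes did) or in dHet proB against wt proB (8.68% did). In each, 1 of 25 had an unadjusted p under 0.05, against 40.2% and 22.5% of all genes. Their geometric mean was 81.4, 135 and 42.9 FPKM in dHet proB libraries 1 to 3, 73.1 to 86.6 FPKM in B-ALL and 94.6 and 90.7 FPKM in wt proB. With that spread within dHet proB, not passing does not show equal levels. In B-ALL against wt proB, 1 of 25 passed (18.2% of all genes did) and 3 had an unadjusted p under 0.05 (35% did). The gene that passed was E2f2, a transcription factor of the E2F family. E2f2 had 22.5 ± 11.7 FPKM in B-ALL (SD, n = 3) and 135 ± 4.6 FPKM in wt proB (SD, n = 2), a log2 fold change of -2.66 (limma adjusted p = 0.0220).

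**Figure D3:**
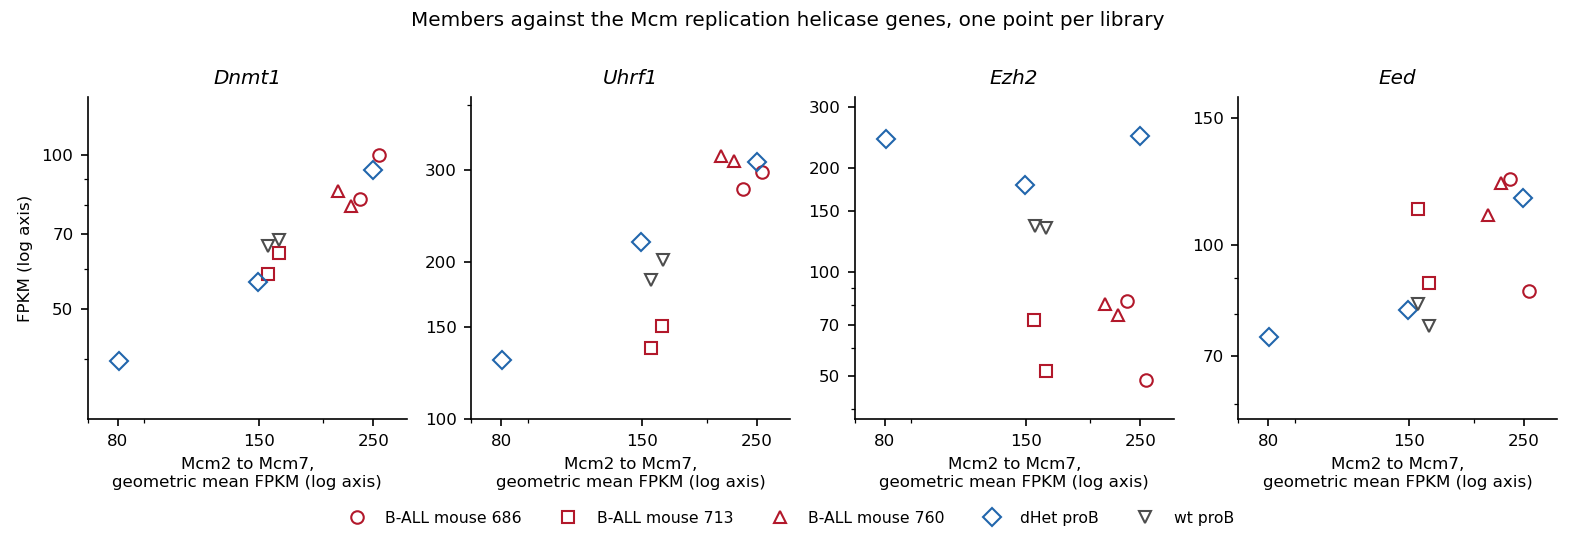
FPKM of Dnmt1, Uhrf1, Ezh2 and Eed (log axis) against the geometric mean FPKM of Mcm2 to Mcm7 (log axis), 1 point per library, with symbols for mouse and group. Dnmt1 is at 0.348 to 0.493 of the Mcm mean in all libraries, whereas Ezh2 in the 6 B-ALL libraries is at 0.190 to 0.465 of it, below the 5 proB libraries.

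Dnmt3a, which methylates new sites, spanned the narrowest range of the 10 members. It had 12.7 to 16.4 FPKM in the 6 B-ALL libraries, 12.3, 10.4 and 11.3 FPKM in dHet proB and 11.3 and 11.8 FPKM in wt proB. Every B-ALL library lay above every proB library. The log2 fold change was 0.29 ± 0.14 (SE) against dHet proB (limma adjusted p = 0.171) and 0.27 ± 0.16 (SE) against wt proB (adjusted p = 0.277).

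Dnmt3b, the other new-site methyltransferase, was the member that differed most between mice. It had 8.78 and 9.38 FPKM in mouse 686, 4.60 and 4.69 FPKM in mouse 713, and 14.9 and 16.5 FPKM in mouse 760, against 3.50, 3.26 and 5.28 FPKM in dHet proB and 4.33 and 3.41 FPKM in wt proB. Mouse 713 was at the level of the proB libraries, and mice 686 and 760 were above it. The log2 fold change was 0.99 ± 0.37 (SE) against dHet proB (limma adjusted p = 0.0872) and 1.02 ± 0.42 (SE) against wt proB (adjusted p = 0.126). Without mouse 713 it was 1.39 (adjusted p = 0.0143) and 1.42 (adjusted p = 0.0194), past the threshold in both. Without mouse 760 it was 0.61 (adjusted p = 0.200) and 0.64 (adjusted p = 0.244). Among the mice, the limma F test over all 11 libraries gave Dnmt3b an adjusted p of 0.00146, with mouse 760 at 2.95-fold of mouse 713 on the FPKM + 1 scale. The Dnmt3a to Dnmt3b ratio was 0.943 and 0.999 for mouse 760, 1.63 and 1.53 for mouse 686, and 2.77 and 2.71 for mouse 713, against 2.14 to 3.50 in the dHet proB libraries and 2.60 and 3.45 for wt proB. Its difference between B-ALL and dHet proB had an exact permutation p of 0.2 (two-sided). Dnmt3b shares 491 of its 4271 words of 50 bases with Dnmt3c, a rodent copy that has no row in the tables, so fragments from those stretches may have been assigned either way.

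**Figure D4:**
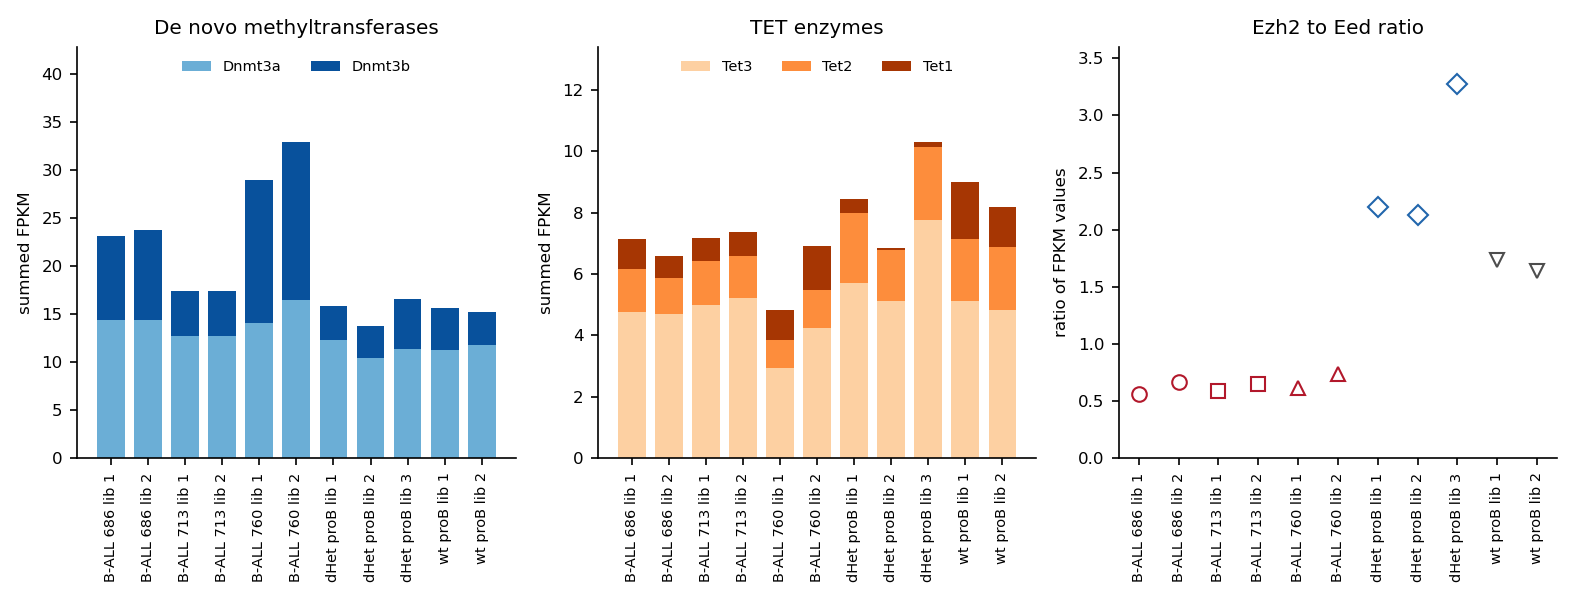
Stacked FPKM of Dnmt3a and Dnmt3b (left), stacked FPKM of Tet3, Tet2 and Tet1 (middle) and the ratio of Ezh2 to Eed FPKM (right), 1 bar or point per library, in the order B-ALL, dHet proB, wt proB. The Dnmt3b part nears that of Dnmt3a in mouse 760, the Tet1 part is smallest in dHet proB, and the Ezh2 to Eed ratio is 0.563 to 0.731 in B-ALL and 1.63 or more in all proB libraries.

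The TET genes were low, and Tet3 led in every library. Tet1 had 0.970 and 0.725 FPKM in mouse 686, 0.740 and 0.771 FPKM in mouse 713, and 0.954 and 1.45 FPKM in mouse 760, against 0.464, 0.0657 and 0.171 FPKM in dHet proB and 1.85 and 1.33 FPKM in wt proB. Every dHet proB library was below every other library, while B-ALL and wt proB overlapped. Tet1 was higher in B-ALL than in dHet proB by 0.65 ± 0.19 log2 (SE, limma adjusted p = 0.0425). That call was lost in 12 of the 23 alternatives in which Tet1 was tested, among them the fits without dHet proB library 1 (0.78, adjusted p = 0.0507), library 2 (0.55, adjusted p = 0.0939) or library 3 (0.62, adjusted p = 0.0899). Without mouse 686 (0.68, adjusted p = 0.0927), library 1 of that mouse (0.62, adjusted p = 0.0532), mouse 760 (0.56, adjusted p = 0.0959), or either wt proB library (0.65 in both, adjusted p = 0.0901 without library 1 and 0.0888 without library 2) it was lost too. Tet1 was lower in dHet proB than in wt proB by a log2 fold change of -1.08 ± 0.22 (SE, limma adjusted p = 0.0196), and the call was lost in 5 of 24 alternatives, among them without dHet proB library 3 (-1.04, adjusted p = 0.0532), without library 1 of wt proB (-0.93, adjusted p = 0.304) and without library 2 of wt proB (-1.22, adjusted p = 0.171). No dHet proB library reached 1 FPKM, and Tet1 passed the low-value filter through mouse 760 and both wt proB libraries. With dHet proB under the filter level, it could be called only as the lower group. With no filter the calls stood (limma adjusted p = 0.0437 and 0.0144). At these levels the pseudocount shrinks the fold: with a pseudocount of 0.1 the same log2 changes were 1.78 and -2.51.

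Tet2 had 0.919 to 1.43 FPKM in the 6 B-ALL libraries, 2.28, 1.68 and 2.39 FPKM in dHet proB and 2.04 and 2.03 FPKM in wt proB. All B-ALL libraries were below all proB libraries. The log2 fold change was -0.46 ± 0.17 (SE) against dHet proB (limma adjusted p = 0.0812; -0.52 and adjusted p = 0.0371 after quantile normalization) and -0.43 ± 0.19 (SE) against wt proB (adjusted p = 0.147). Tet3 had 4.76 and 4.68 FPKM in mouse 686, 5.00 and 5.22 FPKM in mouse 713, and 2.94 and 4.23 FPKM in mouse 760, against 5.69, 5.12 and 7.75 FPKM in dHet proB and 5.11 and 4.84 FPKM in wt proB. The groups overlapped or all but touched, and adjusted p was 0.185, 0.689 and 0.583 in the 3 comparisons (limma). Of the summed TET FPKM, Tet1 made up 14.4% ± 5.3 in B-ALL (SD, n = 3), 2.70% ± 2.44 in dHet proB (SD, n = 3) and 18.4% ± 3.0 in wt proB (SD, n = 2). Tet2 made up 18.9% ± 0.46 in B-ALL, 24.9% ± 2.0 in dHet proB and 23.7% ± 1.4 in wt proB (SD, same n). Tet3 made up 66.7% ± 4.9 in B-ALL, 72.4% ± 4.3 in dHet proB and 57.9% ± 1.6 in wt proB (SD, same n).

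In PRC2 the catalytic subunit Ezh2 fell in B-ALL, while the reader Eed did not pass the test. Ezh2 had 48.6 and 82.5 FPKM in mouse 686, 51.5 and 72.6 FPKM in mouse 713, and 75.0 and 80.4 FPKM in mouse 760, against 178, 247 and 243 FPKM in dHet proB and 134 and 135 FPKM in wt proB. The 3 groups did not overlap at all, with B-ALL lowest and dHet proB highest. Ezh2 fell in B-ALL by a log2 fold change of -1.70 ± 0.17 against dHet proB (SE, 3.26-fold, limma adjusted p = 0.00108), a call kept in all 24 alternatives (-1.93 to -1.48, adjusted p from 0.000849 to 0.0119). Against wt proB the log2 fold change was -1.0 ± 0.19 (SE, 1.99-fold, limma adjusted p = 0.0114). That call was lost without wt proB library 1 (-1.0, adjusted p = 0.0911), without wt proB library 2 (-0.99, adjusted p = 0.119) and with all libraries fitted under a mouse random effect (-1.0, adjusted p = 0.152). Ezh2 in dHet proB against wt proB gave 0.71 ± 0.19 (SE, limma adjusted p = 0.0606), which did not pass; it passed without dHet proB library 1 (0.86, adjusted p = 0.0353). In these bulk samples, fewer cells with the transcript and less transcript per cell cannot be told apart.

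Libraries of 1 mouse differed in Ezh2 and Eed. Library 1 was below library 2 by 0.75 log2 units for Ezh2 and by 0.51 for Eed in mouse 686, and by 0.49 and 0.34 in mouse 713, while mouse 760 differed by 0.10 for Ezh2 and in the other direction for Eed. In mouse 686, 5.29% of tested genes were at or below the Ezh2 difference. What these libraries differ in is not given in the sources used here. With only library 2 of each mouse, the Ezh2 log2 fold change was -1.48 against dHet proB (limma adjusted p = 0.00136) and -0.77 against wt proB (adjusted p = 0.0235), both still past the threshold. In that fit dHet proB against wt proB also passed (0.71, adjusted p = 0.0471).

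Eed had 86.3 and 124 FPKM in mouse 686, 88.3 and 112 FPKM in mouse 713, and 122 and 109.9 FPKM in mouse 760, against 81.0, 116 and 74.3 FPKM in dHet proB and 77.0 and 82.8 FPKM in wt proB. B-ALL lay above wt proB in every library and overlapped dHet proB. The log2 fold change was 0.25 ± 0.18 (SE) against dHet proB (limma adjusted p = 0.338) and 0.40 ± 0.20 (SE) against wt proB (adjusted p = 0.199). Suz12, the scaffold, had 14.7 to 18.8 FPKM in the 6 B-ALL libraries, 19.9, 28.6 and 14.8 FPKM in dHet proB and 19.7 and 23.6 FPKM in wt proB. Its B-ALL libraries were below both wt proB libraries, and the dHet proB libraries spread over both groups. The limma adjusted p was 0.382 against dHet proB and 0.347 against wt proB. The ratio of Ezh2 to Eed FPKM was 0.563 to 0.731 in the 6 B-ALL libraries, 2.2, 2.13 and 3.27 in the dHet proB libraries and 1.74 and 1.63 in the wt proB libraries. The groups were separate on this ratio, with an exact permutation p of 0.1 against dHet proB and 0.2 against wt proB (two-sided), the smallest each design allows. Over the 21 comparisons of ratios and shares, the smallest adjusted p was 0.3. Eed overlaps the noncoding gene E230029C05Rik on the opposite strand, and Ezh2 and Suz12 overlap the noncoding genes Gm26625 and Gm26563. Whether the counting used strand is not stated.

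Ezh1, the alternative catalytic subunit, had 9.39 to 13.7 FPKM in the 6 B-ALL libraries, 11.4, 7.49 and 20.6 FPKM in dHet proB and 14.6 and 15.8 FPKM in wt proB. It did not pass the test in any comparison (limma adjusted p = 0.916 for B-ALL against dHet proB, 0.520 for B-ALL against wt proB and 0.699 for dHet proB against wt proB). Within dHet proB it ran against the Mcm genes, highest in library 3 and lowest in library 2. Ezh2 exceeded Ezh1 in every library, 3.69 to 7.73-fold in B-ALL, 15.6, 33.0 and 11.8-fold in dHet proB and 9.20 and 8.56-fold in wt proB.

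The counts from gene lists that follow are small and are set against all genes tested, of which 14.5% rose and 11% fell in B-ALL against dHet proB, 8.15% rose and 10% fell in B-ALL against wt proB, and 2.18% rose and 6.5% fell in dHet proB against wt proB. Of the other PRC2 subunits, 11 of 13 on the list were tested. None of them passed between B-ALL and dHet proB with limma (2 had an unadjusted p under 0.05). Between B-ALL and wt proB 3 of 11 fell (10% of all genes did). Phf1, a Polycomb-like protein that binds methylated H3, had 2.56 ± 0.56 FPKM in B-ALL (SD, n = 3) and 7.37 ± 0.40 FPKM in wt proB (SD, n = 2; log2 fold change -1.25, limma adjusted p = 0.0112). Lcor, from whose locus a PRC2-binding isoform is made, had 1.26 ± 0.02 FPKM in B-ALL and 2.85 ± 0.04 FPKM in wt proB (SD, same n; -0.77, adjusted p = 0.0219). Its relative Lcorl fell as well (adjusted p = 0.0225). Between dHet proB and wt proB 1 of 11 rose and 1 fell. The riser was Epop, listed under its older symbol E130012A19Rik, which links PRC2 to elongin, with 12.8 ± 4.7 FPKM in dHet proB (SD, n = 3) and 2.18 ± 0.72 FPKM in wt proB (SD, n = 2; 2.08, adjusted p = 0.00686). In mouse 686 it had 2.16 FPKM in library 1 and 21.5 FPKM in library 2, a larger gap between libraries of 1 mouse than that of Ezh2. Phf1 fell in dHet proB (-0.94, adjusted p = 0.0492). Jarid2, Mtf2 and Aebp2, cofactors that bring PRC2 to its sites, did not pass in any comparison, and Jarid2 had 18.1 to 21.9 FPKM in B-ALL, 15.2 to 22.0 FPKM in dHet proB and 19.8 and 23.2 FPKM in wt proB.

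Of 10 listed demethylases and MLL-type genes, 3 fell and none rose in each B-ALL comparison (Kdm5b, Kmt2a and Kmt2c against dHet proB, where 11% of all genes fell; Kdm5b, Kmt2a and Kdm6b against wt proB, where 10% did), and none passed in dHet proB against wt proB (limma, none with an unadjusted p under 0.05). The median log2 fold change of the list was -0.64 in B-ALL against dHet proB (0.04 over all genes) and -0.57 against wt proB (-0.02 over all genes). Kdm5b, which removes methyl groups from H3 lysine 4, had 0.177 ± 0.138 FPKM in B-ALL (SD, n = 3), 8.38 ± 6.91 FPKM in dHet proB (SD, n = 3) and 14.3 ± 1.9 FPKM in wt proB (SD, n = 2). Kdm5b passed the low-value filter through proB libraries only, so a fall in B-ALL was the only call open to it. Kdm5b is included in both sets of 3, and its p-values are left out for that reason. Kmt2a, the MLL1 methyltransferase, had 2.54 ± 0.67 FPKM in B-ALL and 5.85 ± 1.34 FPKM in dHet proB (SD, n = 3 each; -0.96, adjusted p = 0.0182). Kdm6b, a demethylase of H3 lysine 27, had 5.99 ± 1.47 FPKM in B-ALL and 14.4 ± 5.3 FPKM in wt proB (SD, n = 3 and 2; -1.12, adjusted p = 0.0435).

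PRC1, the complex that binds the PRC2 mark and ubiquitinates H2A, had 23 of 25 listed genes tested. Against dHet proB 2 rose and 4 fell in B-ALL, against wt proB 1 rose and 4 fell, and in dHet proB against wt proB 1 fell. Cbx6, whose protein reads the PRC2 mark, had 5.07 ± 2.58 FPKM in B-ALL, 12.0 ± 0.96 FPKM in dHet proB and 14.2 ± 2.3 FPKM in wt proB (SD, n = 3, 3 and 2), with a limma adjusted p of 0.0202 and 0.0203 for B-ALL against the other groups. Cbx7 had 5.39 ± 3.22 FPKM in B-ALL and 14.7 ± 1.4 FPKM in wt proB (SD, n = 3 and 2; -1.41, adjusted p = 0.0316) and did not pass against dHet proB (-0.56, adjusted p = 0.234). Cbx2 and Cbx8, other readers of the family, did not pass in any comparison. Kdm2b, which brings PRC1 to CpG islands, rose in B-ALL to 41.2 ± 4.4 FPKM, against 28.1 ± 5.4 FPKM in dHet proB (SD, n = 3 each; 0.54, adjusted p = 0.0482). L3mbtl2, a subunit of another PRC1 form, rose alike (0.50, adjusted p = 0.0456). The riser against wt proB was Pcgf2, which reached 1 FPKM in no wt proB library. Phc3 fell in dHet proB against wt proB (-0.70, adjusted p = 0.0388).

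Among partners of the DNA methyltransferases, 9 of 12 listed genes were tested. Against dHet proB 1 rose and 1 fell in B-ALL, against wt proB 1 rose, and in dHet proB against wt proB 1 fell. Cdca7, which works with the remodeller HELLS to keep DNA methylation, rose in B-ALL to 253 ± 78 FPKM (SD, n = 3), against 109 ± 23 FPKM in dHet proB (SD, n = 3) and 111 ± 18 FPKM in wt proB (SD, n = 2). Its log2 fold change was 1.18 against dHet proB (limma adjusted p = 0.0179) and 1.14 against wt proB (adjusted p = 0.0364). Like Dnmt3b and Uhrf1, Cdca7 was lower in mouse 713 than in the other mice, at 159 and 168 FPKM. Hells itself did not pass, with 37.7 to 76.0 FPKM in B-ALL, 13.3 to 61.4 FPKM in dHet proB and 39.5 and 42.1 FPKM in wt proB. Uhrf2, a relative of Uhrf1, fell in B-ALL to 7.08 ± 0.99 FPKM, against 22.1 ± 12.8 FPKM in dHet proB (SD, n = 3 each; -1.42, limma adjusted p = 0.0202). Nsd1, which writes H3 lysine 36 methylation read by DNMT3 enzymes, fell in dHet proB to 8.65 ± 0.51 FPKM, against 16.4 ± 4.7 FPKM in wt proB (SD, n = 3 and 2; -0.83, adjusted p = 0.0481).

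Of the 8 genes on the list of methyl-CpG readers, 3 fell in B-ALL against dHet proB (Mbd1, Mbd2 and Mbd4), 1 fell against wt proB, and 1 rose in dHet proB against wt proB. Mbd2 had 7.48 ± 1.47 FPKM in B-ALL, 23.0 ± 4.2 FPKM in dHet proB and 10.3 ± 0.69 FPKM in wt proB (SD, n = 3, 3 and 2). The limma adjusted p of Mbd2 was 0.00248 for B-ALL against dHet proB and 0.0185 for dHet proB against wt proB. Mbd4, a glycosylase that also acts on deaminated methylcytosine, had 7.86 ± 0.56 FPKM in B-ALL, 21.6 ± 7.3 FPKM in dHet proB and 22.2 ± 0.81 FPKM in wt proB (SD, n = 3, 3 and 2). It passed in both B-ALL comparisons (-1.29, limma adjusted p = 0.0104, and -1.39, adjusted p = 0.0143).

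Of 12 tested genes of demethylation and base excision, 1 rose and 4 fell in B-ALL against dHet proB, 2 rose and 3 fell against wt proB, and none passed in dHet proB against wt proB (limma, 1 with an unadjusted p under 0.05). Apex1, the endonuclease that cuts abasic sites, rose to 250.2 ± 44.2 FPKM in B-ALL (SD, n = 3), against 87.4 ± 36.7 FPKM in dHet proB (SD, n = 3) and 73.2 ± 21.4 FPKM in wt proB (SD, n = 2; limma adjusted p = 0.0149 and 0.0185). Tdg, the glycosylase that removes oxidised methylcytosine, had 62.4 ± 6.6 FPKM in B-ALL and 40.8 ± 8.3 FPKM in wt proB (SD, n = 3 and 2; 0.61, adjusted p = 0.0477). Neil1, a glycosylase for oxidised bases, fell to 7.55 ± 2.76 FPKM in B-ALL, against 36.3 ± 8.9 FPKM in dHet proB and 64.7 ± 2.7 FPKM in wt proB (SD, n = 3, 3 and 2; limma adjusted p = 0.00199 and 0.000669). Gadd45b fell against dHet proB (-1.61, adjusted p = 0.0470) and Gadd45a against wt proB (-2.44, adjusted p = 0.00827); both are stress genes tied to demethylation.

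Enzymes that make methyl donors and TET cofactors gave 13 tested genes. Against dHet proB 1 rose and 1 fell in B-ALL, against wt proB 2 rose, and in dHet proB against wt proB 1 fell. Idh3a, a subunit of the mitochondrial isocitrate dehydrogenase that makes 2-oxoglutarate, rose to 139 ± 18 FPKM in B-ALL, against 49.0 ± 18.3 FPKM in dHet proB and 58.1 ± 4.9 FPKM in wt proB (SD, n = 3, 3 and 2; limma adjusted p = 0.00634 and 0.0237). Idh1, the cytosolic form, fell to 17.2 ± 7.4 FPKM in B-ALL, against 41.2 ± 3.9 FPKM in dHet proB (SD, n = 3 each; -1.28, adjusted p = 0.0118). Ahcy, which clears the methylation by-product S-adenosylhomocysteine, rose against wt proB (1.04, adjusted p = 0.0461). Ogdh, which consumes 2-oxoglutarate, fell in dHet proB against wt proB (-0.60, adjusted p = 0.0390).

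None of 28 germline genes known to be held off by DNA methylation reached 1 FPKM in any library, and 14 were at 0 in all 11. Of 40 classic Polycomb targets, 5 passed the low-value filter, and of 25 imprinted genes 9 did. Several of these were near 0 in B-ALL and passed the filter only through proB libraries, so their values are given without a count of falls or a test. Hoxa7 had 0 to 0.0194 FPKM in the B-ALL libraries, 2.94, 0.0676 and 3.37 FPKM in dHet proB and 9.90 and 9.64 FPKM in wt proB. Hoxb4 was at 0.0140 to 0.0810 FPKM in B-ALL, 1.42, 1.23 and 1.29 FPKM in dHet proB and 2.15 and 2.81 FPKM in wt proB. Hoxa9 and Sgce reached 1 FPKM in the wt proB libraries alone, with 2.79 and 1.94 FPKM for Hoxa9 and 3.28 and 6.04 FPKM for Sgce. Cdkn1c, a growth inhibitor, had 0.0966 ± 0.0795 FPKM in B-ALL, 2.34 ± 0.81 FPKM in dHet proB and 3.57 ± 0.96 FPKM in wt proB (SD, n = 3, 3 and 2). Hoxa7, Hoxb4 and Cdkn1c were below 1 FPKM in every B-ALL library. Cdkn2a, which encodes cell cycle inhibitors, had 8.20 and 7.86 FPKM in mouse 686, 6.61 and 7.21 FPKM in mouse 713 and 0.458 and 0.399 FPKM in mouse 760. In dHet proB Cdkn2a had 14.9, 31.7 and 8.59 FPKM, against 0.416 and 0.613 FPKM in wt proB. It reached 1 FPKM in no wt proB library and passed the filter through other samples, so these values too are given without a test. Igf2r, an imprinted gene that clears IGF2, fell to 1.25 ± 1.01 FPKM in B-ALL, against 5.90 ± 1.06 FPKM in dHet proB (SD, n = 3 each; -1.74, limma adjusted p = 0.0134).

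Medians over the tested genes of the other lists are given for B-ALL against dHet proB, B-ALL against wt proB and dHet proB against wt proB, in that order, as log2 fold changes; over all genes they were 0.04, -0.02 and -0.04. They were -0.09, -0.29 and -0.12 for methyltransferase partners, -0.02, -0.39 and -0.08 for methyl-CpG readers, and -0.22, -0.35 and -0.03 for demethylation and base excision. For methyl donor and cofactor enzymes the medians were 0.19, 0.31 and 0.20, above that of all genes in each comparison. They were -0.06, -0.23 and -0.23 for the other PRC2 subunits and -0.14, -0.29 and -0.09 for PRC1. No median is given for Polycomb targets and imprinted genes, for the reason above. Cell cycle genes were at -0.03, -0.0064 and -0.21.

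Among the 3 leukemias, Dnmt3b was the member that differed past the threshold. It passed the F test described above, 1 of 10 members against 22.3% of the 11293 genes tested among the mice. That test sets mice against the spread between libraries, not against the spread between animals. Uhrf1 came next, with means of 286 FPKM in mouse 686, 144 FPKM in mouse 713 and 315 FPKM in mouse 760 (limma adjusted p = 0.0545). Uhrf1 passed in 6 of 17 alternatives, among them the library number as a replicate block (limma adjusted p = 0.00554). That block treats same-numbered libraries as paired, which the labels do not state. For Dnmt1 the means were 91.0, 61.6 and 82.3 FPKM in mice 686, 713 and 760 (adjusted p = 0.429). Mouse 713 was the lowest for Dnmt1, Uhrf1, Dnmt3a, Dnmt3b, Tet1, Ezh2 and Eed, while mouse 760 was the lowest for Tet2, Tet3 and Suz12. Ezh2 had 65.5 FPKM in mouse 686, 62.0 FPKM in mouse 713 and 77.7 FPKM in mouse 760 (adjusted p = 0.598). Red cell markers were also uneven, with Hba-a1 at 4.07 and 5.48 FPKM in mouse 686, 218 and 277 FPKM in mouse 713 and 63.9 and 75.9 FPKM in mouse 760; their part in the differences between mice was not tested.

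Profiles over the 8 mice and libraries were compared with 6298 genes of mean FPKM 10 or more, for the members whose values span 2-fold or more. The measure was the root mean square difference of centred log2(FPKM + 1), and it describes likeness only. Dnmt1 was closest to Blm, a helicase of recombination (0.08), Exosc8, an RNA exosome subunit (0.10), and Apoo, a mitochondrial protein (0.11), against a spread of 0.37 of its own. Uhrf1 was closest to Ctc1, a telomere replication protein (0.13), Haus1, a spindle protein (0.15), and Fignl1, a repair ATPase (0.16), against 0.46 of its own. Dnmt3b was closest to Xxylt1 (0.15), the zinc transporter Slc39a10 (0.18) and Akr7a5 (0.23), against 0.64. Tet1 was closest to Fam69a (0.16), the folate enzyme Mthfs (0.20) and Nme3 (0.21), against 0.46. Ezh2 was closest to Mapk1ip1 (0.16), Mgea5, the enzyme that removes O-GlcNAc (0.17), and Hnrnpul1, an RNA-binding protein (0.19), against 0.76. Hnrnpul1 had a mean of 62.2 FPKM in B-ALL, 207 FPKM in dHet proB and 112 FPKM in wt proB. This is the order of Ezh2, which follows from the choice of Hnrnpul1 by likeness.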

How the data were processed

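RNA of 11 libraries was prepared with the RNeasy Mini and NEBNext E6420 kits, per the labels' protocols. The submitters' processing notes name bcl2fastq (0.3.1 and 2.20.0.422), STAR 2.5.3a, Cufflinks 2.2.1, Cuffdiff, Cuffnorm 2.2.1 and build mm9. The authors deposited FPKM per gene symbol for each library. The annotation, the scaling and any use of strand: not given in the sources used here. Absolute depth is unknown, so no counting intervals are given.

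Values of log2(FPKM + 1) were averaged over the 2 libraries of a B-ALL mouse, which gave 8 samples with the 3 dHet proB and 2 wt proB libraries. Genes at 1 FPKM or more in at least 2 of the 8 were tested with limma 3.58.1 in R 4.3.3 (mean-variance trend, all groups in 1 fit, Benjamini-Hochberg adjustment over 11110 genes, threshold 0.05). B-ALL mice were compared with limma's F test on the 11 libraries in 5 groups. Ratios and shares were compared with exact permutation tests over samples (two-sided). The code was tested on simulated data. The labels' titles number the libraries but do not say that the numbers pair them across mice. Deviations from the mouse means of same-numbered B-ALL libraries correlated at 0.640 for mice 686 and 713. The values were 0.135 for mice 686 and 760 and 0.207 for mice 713 and 760. No library pair held identical values.

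The members and gene lists were chosen with earlier results of these data known. All members and Ezh1 are named, and from each list up to 2 genes in each direction, those of greatest change that passed. One gene that this rule picks is not reported here. Hells, Jarid2, Mtf2, Aebp2, Lcorl, Mbd1, Kmt2c, Cbx2, Cbx8 and Hba-a1 were named after their values were seen. Alternatives covered the pseudocount, the filter, TPM and quantile scaling, the use of the mouse libraries, the trend, the samples in the fit, a replicate block and leaving out each sample. Promoter windows came from RefSeq (GRCm38.p6), and shared words of 50 bases from the GENCODE M21 transcripts.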

Additional observations from a re-analysis of the deposited data

How the results depend on the processing

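Ezh2 in B-ALL against dHet proB kept its call in all 24 alternatives and Dnmt3b among the mice in all 17. The number of members called in B-ALL against dHet proB (2) was 1 with library 2 of each mouse, 1 with mouse as a random effect, with or without the replicate block, and 1 with only those groups in the fit, where Tet1 was not tested. In B-ALL against wt proB (1) it was 0 with mouse as a random effect and no block. In dHet proB against wt proB (1) it was 0 after quantile normalization, 0 with the replicate block and 2 with library 2 of each mouse. Among the mice (1) it was 2 after TPM scaling, 2 after quantile normalization, 2 with the replicate block and 4 with only the 6 B-ALL libraries, a fit that called 5073 genes. The log2 ratio of Ezh2 to Ezh1 in B-ALL minus wt proB (-0.63) was -0.90 with library 1 and -0.35 with library 2 of each mouse. The causes were not tested.

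Leaving out 1 mouse or library gave 1393 to 2965 genes and 1 to 3 members called in B-ALL against dHet proB, 195 to 2460 genes and 0 to 2 members in B-ALL against wt proB, 76 to 1251 genes and 0 to 2 members in dHet proB against wt proB, and 1302 to 3430 genes and 1 to 2 members among the mice. Past 1.5 times, the counts were 1395 without mouse 686 and 1393 without dHet proB library 1 (B-ALL against dHet proB), 1055 without mouse 686, 275 without wt proB library 1 and 195 without wt proB library 2 (B-ALL against wt proB), 76 and 115 without wt proB libraries 1 and 2 (dHet proB against wt proB), and 1344, 1302, 1628 and 1652 without library 1 or 2 of mouse 713 or library 1 or 2 of mouse 760 (mice).

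No called member changed direction. Members that did not pass changed sign as follows: Dnmt1 in B-ALL against wt proB (-0.0078, TPM), Tet3 in the same comparison (0.057, quantile) and Dnmt3a in dHet proB against wt proB (0.083, quantile). With the replicate block, the values were -0.15 for Uhrf1 and 0.30 for Ezh1 in B-ALL against dHet proB, and 0.11 for Dnmt1, -0.15 for Dnmt3b, -0.036 for Tet2 and 0.14 for Suz12 in dHet proB against wt proB. With 1 mouse or library left out, the ranges were -0.15 to 0.54 for Uhrf1 and -0.37 to 0.30 for Ezh1 in B-ALL against dHet proB. In dHet proB against wt proB they were -0.50 to 0.11 for Dnmt1, -0.20 to 0.43 for Uhrf1, -0.078 to 0.029 for Dnmt3a, -0.15 to 0.16 for Dnmt3b, -0.036 to 0.14 for Tet2, -0.041 to 0.28 for Eed, -0.31 to 0.14 for Suz12 and -0.65 to 0.020 for Ezh1.

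The labels do not say that the replicate numbers mark a pairing. Over all 20 pairs of same-numbered libraries the correlation of deviations ran from -0.13 to 0.64, above 0.1 in 9. In a group of 2 libraries the deviations mirror each other. Pairs between 2 such groups therefore repeat the same value for libraries 1 and 2, and the count holds these repeats. The 0.64 was between mice 686 and 713. The other pairs of mice had 0.135 and 0.207, and mouse 686 with wt proB had 0.114. The block among the mice changed the call of Uhrf1 (adjusted p = 0.00554) and of no other member. With the block, dHet proB library 3 has a term of its own and drops out, and Tet1 lost its calls (0.62, limma adjusted p = 0.152, and -1.04, adjusted p = 0.0840). TPM scaling moved the median log2 fold change of all genes by -0.15 in B-ALL against dHet proB and by -0.20 in B-ALL against wt proB. The share of calls that were higher was 57.0% in B-ALL against dHet proB (38.8% with TPM, 46.5% after quantile normalization), 44.9% in B-ALL against wt proB (23.8% with TPM) and 25.1% in dHet proB against wt proB (41.8% after quantile normalization).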
